A study of Mus musculus with 2 samples.

Results

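Molecular chaperones and the heat shock factors that drive them were examined for YY1 binding at their promoters in mouse muscle stem cells (MuSCs). The set held 92 of the 21938 protein-coding genes annotated on chromosomes 1 to 19, X and Y. It was defined by gene symbol, with earlier results of these data known. Its classes were HSP90 (Hsp90), HSP70 (Hspa and Hsph), the mitochondrial HSP60 and HSP10 (Hspd1 and Hspe1) and small heat shock proteins (Hspb). Further classes were HSP40 or J-domain proteins (Dnaja, Dnajb and Dnajc) and the cytosolic chaperonin CCT (Tcp1 and Cct2 to Cct8). Prefoldin (Pfdn) and the Hsf genes made up the rest. A gene was called bound when the summit of a YY1 peak lay within 1000 bp of one of its annotated transcript starts. By this rule 40 of the 92 genes, or 43.5%, were bound (95% exact binomial interval 33.2% to 54.2%), while 18.8% of all protein-coding genes were bound.

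The peaks come from 1 YY1 ChIP-seq library, in which an antibody recovers the DNA fragments held by YY1 and bound sites appear as pileups of sequenced fragments. The MuSCs were pooled from 20 Ctrl mdx mice (Pax7 CreERT2/R26YFP; Yy1 +/+; mdx), which carry the dystrophin mutation of mdx, a tamoxifen-dependent Cre under the MuSC gene Pax7 and a YFP reporter, and keep intact Yy1. The paper calls the cells freshly isolated, the sample labels describe cells grown in culture, and the series text calls them WT. The background library, called input in the labels and IgG in the methods, was not analysed on its own here, there are no replicates, and the ages of the mice and their tamoxifen treatment are not given for this library in the sources used here. A peak list holds no expression, so the identity of the cells could not be checked against MuSC markers.

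Chaperones help other proteins reach and keep their folded form. HSP70 binds short unfolded stretches in cycles of ATP hydrolysis that J-domain proteins start, HSP90 acts late on kinases, receptors and other clients, and CCT folds actin and tubulin inside a closed double ring to which prefoldin hands them. Small heat shock proteins hold unfolded proteins without ATP, and many of them are abundant in skeletal and heart muscle. Under proteotoxic stress, heat shock factors bind repeats of GAA and its reverse complement TTC in the promoters of these genes. YY1 is a zinc-finger protein that binds many promoters near the transcript start, at a motif built round ATGGC.

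The list held 4681 peaks, with 8 to 394 fragments at the summit and a median of 14. Fold enrichment is the number of fragments at the summit plus 1, divided by the local background plus 1, so it moves in steps and unrelated peaks can share a value. The depth computed from the most frequent background level, 1.54 fragments at 1370 peaks, was 13357713 fragments. A promoter without a peak is one at which no enrichment passed the limit at this depth, which does not show that YY1 is absent there. Poisson intervals of fold enrichment cover the counting error of fragments only. Binomial intervals of shares treat each gene or peak as an independent draw, which related genes are not. Neither kind says anything of variation between mice or libraries.

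The sequences that show the YY1 motif most directly are those with AANATGGC inside a chaperone gene's promoter peak. Of the 44 distinct promoter peaks of these genes, 9 held it on either strand anywhere in the peak, and 8 of those 9 motifs ran on the strand of the chaperone gene. In 5 of them the motif began between 2 bp before and 59 bp after a transcript start of the basic annotation. The 30-base windows of 6 are given here from the RefSeq assembly GRCm38.p6, 5′ to 3′ on the strand of the gene, with the motif in capitals.
Dnaja3, chr16:4684120-4684149, plus strand: gtccccgggccAAAATGGCtgcgtggtgtt
Dnajc13, chr9:104262887-104262916, minus strand: aagcctggtggAAGATGGCggcgtccaggg
Pfdn4, chr2:170511432-170511461, plus strand: tggttcagtccAAGATGGCggccaccatga
Dnaja4, chr9:54699320-54699349, plus strand: ccgagcaccccAACATGGCccgtggcggca
Dnajb4, chr3:152210499-152210528, minus strand: aagaaaggaagAAGATGGCggccgtcgagg
Tcp1, chr17:12916067-12916096, plus strand: aactagtcgcaGCCATGTTaactgtgggta
The motif lay 16 bp after a start of Dnaja3, 25 bp after that of Dnajc13 and 2 bp before a start of Pfdn4. In Dnaja4, Dnajb4 and Tcp1 it lay farther upstream of the nearest basic transcript start, by 228, 434 and 251 bp. The motifs of Dnaja4 and Tcp1 were nevertheless inside the annotated gene, and that of Dnajb4 was nearer to the outermost end of its gene. The other 3 genes were Dnajc11, Dnajc30 and Hspa9.

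Measured from the summit, few of these motifs were close. Dnajc11 had AAGATGGC 25 bp from its summit and Dnajc30 had AACATGGC 78 bp from its summit, and these were the 2 peaks of 44 (4.55%, 0.555% to 15.5%) with the motif within 100 bp of the summit. At all 3777 promoter peaks of protein-coding genes the share was 7.55% (6.72% to 8.43%), inside the interval of the chaperone share. The remaining 7 motifs lay 126 bp (Dnaja3), 150 bp (Dnajc13), 156 bp (Pfdn4), 180 bp (Dnaja4), 215 bp (Dnajb4), 268 bp (Tcp1) and 345 bp (Hspa9) from the summit. Over the whole peak the chaperone share was 20.5% (9.80% to 35.3%) and that of all promoter peaks 14.9%. The share of chaperone peaks with the core ATGGC within 100 bp was 22.7% (11.5% to 37.8%), and 30.6% at all promoter peaks. The order of the shares therefore depended on the motif window, and with 44 peaks no difference from the background was detectable.

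**Figure D1:**
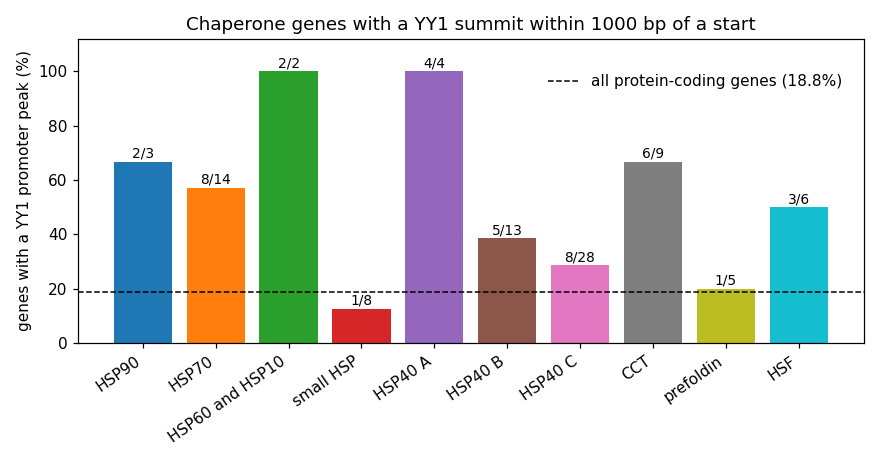
Share of genes in each chaperone class with a YY1 summit within 1000 bp of a transcript start, in percent, with the number bound and the number of genes above each bar. The dashed line marks the 18.8% of all protein-coding genes. All 4 Dnaja genes and both HSP60 and HSP10 genes were bound, and 1 of 8 small heat shock protein genes.

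The classes differed in how many of their genes were bound. All 4 Dnaja genes and both genes of the HSP60 and HSP10 pair had a promoter peak, followed by 6 of 9 CCT genes, 2 of 3 HSP90 genes, 8 of 14 HSP70 genes and 3 of 6 Hsf genes. Of the Dnajb genes 5 of 13 were bound, of the Dnajc genes 8 of 28, of the prefoldin genes 1 of 5 and of the small heat shock protein genes 1 of 8. The share in prefoldin, 20.0%, was near the background of 18.8%, and that in the small heat shock proteins, 12.5%, was below it. The exact binomial intervals are wide in such small classes. They ran from 0.316% to 52.7% for the small heat shock proteins and from 29.9% to 92.5% for CCT. These 2 intervals overlap, and the difference between the 2 classes was not tested. The genes of 1 class are related by descent and Hspd1 and Hspe1 share 1 peak, so genes are not independent draws.

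Peak height at chaperone genes was close to that at other bound genes. The strongest promoter peak of the 40 bound genes had a median fold enrichment of 5.13, the same as that of the 4119 bound protein-coding genes. The middle 50% ran from 4.48 to 6.72 in the chaperone genes and from 4.37 to 6.12 in all bound genes, and a fold enrichment of at least 5 was reached by 57.5% and 59.4%. The median number of fragments was 17 in the chaperone genes, with a range of 9 to 26, and 15 in all bound genes. All 40 genes had a peak with a MACS2 q-value under 0.05, the highest being 0.0289, and 36 (90%) had one under 0.01. Of all bound protein-coding genes 98.2% and 92.8% did. These q-values compare 1 ChIP library with its background library and not animals.

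**Figure D2:**
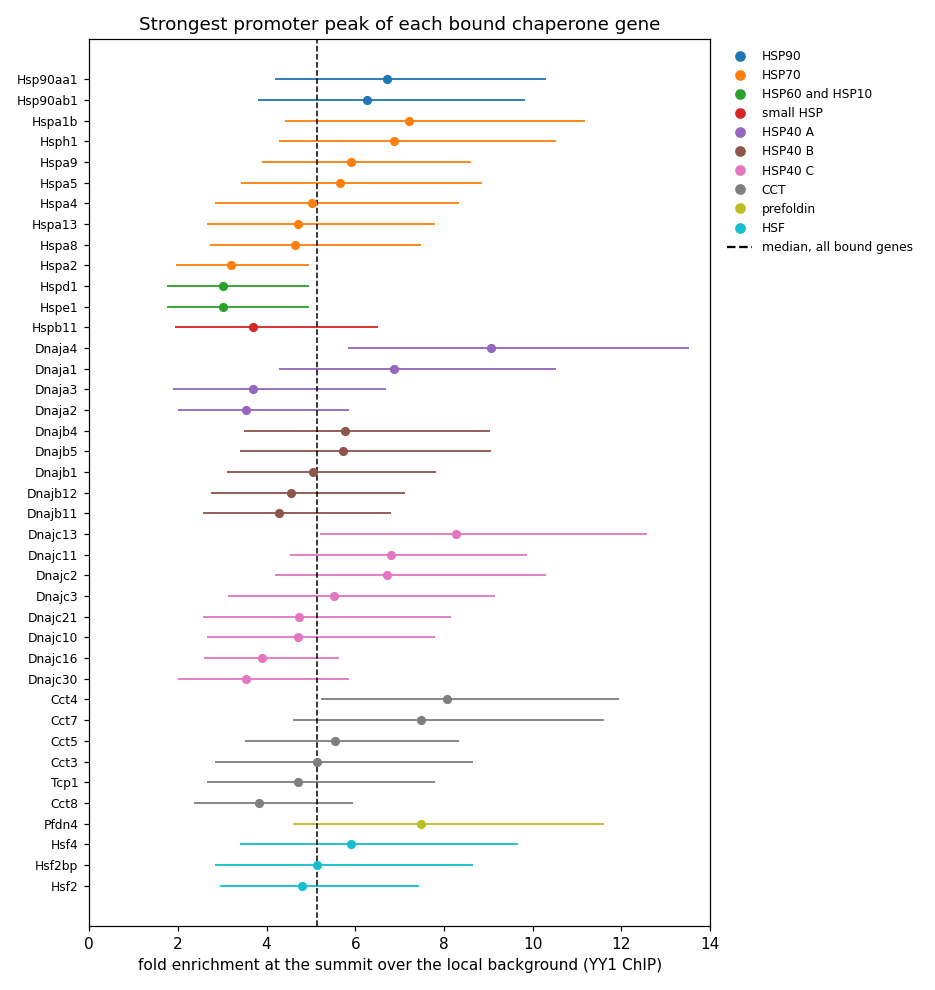
Fold enrichment at the summit of the strongest promoter peak of each of the 40 bound genes, coloured by class. Bars are 95% exact Poisson intervals from the number of fragments (counting error only), and the dashed line is the median of all bound protein-coding genes, 5.13. Values run from 3.03 at Hspd1 and Hspe1 to 9.07 at Dnaja4, and most intervals overlap.

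Dnaja4, a cytosolic J-domain partner of HSP70, had the highest peak of the set. It lay at chr9:54699314-54699679 and held 22 fragments over a local background of 1.54. Its fold enrichment was 9.07 (95% Poisson interval 5.83 to 13.5) at a q-value of 1.87e-14. Its summit was 45 bp upstream of a start of Dnaja4, in an intron of a longer transcript. Dnajc13, an endosomal J-domain protein, followed with 20 fragments and a fold enrichment of 8.28 (5.21 to 12.6) at chr9:104262825-104263293, 121 bp upstream of its start. Cct4, a CCT subunit, had 23 fragments and a fold enrichment of 8.07 (5.24 to 11.9) at chr11:22990442-22990805, 58 bp upstream of a start.

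Cct7, another CCT subunit, and Pfdn4, a prefoldin subunit, shared the next value, each with 18 fragments and a fold enrichment of 7.49 (4.60 to 11.6). The peak of Cct7 was at chr6:85451441-85452259, and that of Pfdn4 at chr2:170511176-170511482. At Pfdn4 the peak marked a start inside the annotated gene, in exon 1 of one transcript and an intron of another, and not the outermost start. Among the 39 distinct peaks that were strongest at a gene, the intervals failed to overlap in 7 of 741 pairs, and in no pair of neighbours in the order. Dnaja4 stood clear of 3 peaks by its interval, and the lowest, shared by Hspd1 and Hspe1, was likewise clear of 3. The order between these ends is not resolved by the intervals, and differences between peaks were not tested.

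In the HSP90 class, both cytosolic genes were bound and the endoplasmic reticulum gene was not. Hsp90aa1, the stress-inducible form, had 19 fragments and a fold enrichment of 6.72 (4.18 to 10.3), with its summit 24 bp downstream of a start. Hsp90ab1, the constitutive form, had 2 peaks, the stronger with a fold enrichment of 6.27 (3.80 to 9.84) 638 bp upstream of the start. Its second peak, at 5.16 (3.03 to 8.30), lay 72 bp upstream. The nearest summit to Hsp90b1, which encodes the form of the endoplasmic reticulum, was 73.5 kb away.

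In the HSP70 class, binding spanned the cytosolic, endoplasmic reticulum and mitochondrial forms. Hspa8, the constitutive cytosolic HSP70, had 15 fragments and a fold enrichment of 4.65 (2.73 to 7.48) at a summit 697 bp upstream. A second Hspa8 peak, 45 bp upstream, held more fragments, 20, over a higher background of 5.93, so that its fold enrichment was 3.03 (1.91 to 4.60). Hspa5, which encodes BiP of the endoplasmic reticulum, had 17 fragments and a fold enrichment of 5.65 (3.42 to 8.85), 6 bp downstream of its start. Hspa9, the mitochondrial HSP70, had 25 fragments and a fold enrichment of 5.91 (3.91 to 8.62), 192 bp upstream. Of the large HSP70 relatives, which act as nucleotide exchange factors, Hsph1 and Hspa4 were bound and Hspa4l was not. Hsph1 was at 6.87 (4.27 to 10.5) with its summit 3 bp upstream of a start, and Hspa4 was at 5.03 (2.85 to 8.34) with its summit 378 bp downstream.

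The remaining bound HSP70 genes were Hspa13, Hspa2 and Hspa1b. Hspa13, a microsomal relative, had a fold enrichment of 4.70 (2.66 to 7.81), 297 bp upstream. Hspa2, known for its role in male germ cells, had 18 fragments where the local background was 4.94, and a fold enrichment of 3.20 (1.96 to 4.96), 8 bp upstream. Hspa1a, Hspa1l, Hspa4l, Hspa12a, Hspa12b and Hspa14 had no summit within 1000 bp of a start.

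Hspd1 and Hspe1, the mitochondrial HSP60 and its HSP10 lid, are transcribed away from each other, and 1 peak served both. It lay at chr1:55087996-55088374 and held 14 fragments where 3.95 were the local background, which gave a fold enrichment of 3.03 (1.75 to 4.95), the lowest of the set, and the q-value of 0.0289. Its summit was 160 bp downstream of the start of Hspe1 and 268 bp upstream of the start of Hspd1 in the basic annotation, and it was 49 bp upstream of another start of Hspd1 in RefSeq. Under a q-value limit of 0.01 neither gene remained bound.

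Among the Dnaja genes, Dnaja1 had 19 fragments and a fold enrichment of 6.87 (4.27 to 10.5), 110 bp downstream of a start. Dnaja1 and Dnaja2 are general cytosolic partners of HSP70, and Dnaja2 reached 3.53 (1.999 to 5.86) at a summit 312 bp downstream. Dnaja3, the mitochondrial J-domain protein also called Tid1, had 9 fragments, the fewest among the strongest peaks of the 40 genes, and a fold enrichment of 3.71 (1.90 to 6.70), 62 bp upstream of a start. The q-value at Dnaja3 was 0.0216. The class thus held both the highest peak of the set and some of the lowest.

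The bound Dnajb genes covered cytosol and endoplasmic reticulum. Dnajb1, the classical stress-inducible HSP40, had 18 fragments and a fold enrichment of 5.05 (3.10 to 7.83), 10 bp upstream of its start. Dnajb4 and Dnajb5, close relatives of Dnajb1, had fold enrichments of 5.76 (3.49 to 9.03) and 5.71 (3.41 to 9.07), 215 and 228 bp upstream. Dnajb11, a luminal partner of BiP, had 4.29 (2.56 to 6.81) at a summit 4 bp upstream, and Dnajb12, a membrane protein of the endoplasmic reticulum, had 4.54 (2.75 to 7.12) at a summit 80 bp downstream. Unbound were Dnajb2, Dnajb3, Dnajb6, Dnajb7, Dnajb8, Dnajb9, Dnajb13 and Dnajb14. Of these, Dnajb6 is a known gene of inherited limb-girdle muscular dystrophy, and its nearest summit was 167 kb away.

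The 8 bound Dnajc genes act in several compartments. Dnajc11, a mitochondrial membrane protein, had 26 fragments and a fold enrichment of 6.81 (4.54 to 9.86), 37 bp downstream of its start. Dnajc2, which binds ribosomes, had 19 fragments and 6.72 (4.18 to 10.3), 9 bp downstream. Dnajc3 and Dnajc10, both of the endoplasmic reticulum lumen, had 5.52 (3.12 to 9.16) at a summit 253 bp upstream and 4.70 (2.66 to 7.81) at 178 bp downstream. Dnajc21, which takes part in making ribosomes, reached 4.73 (2.56 to 8.16) at 334 bp downstream.

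Dnajc16 showed how the local background sets the fold enrichment: it had 26 fragments, as many as Dnajc11, where the local background was 5.93, and a fold enrichment of 3.90 (2.60 to 5.64), 67 bp downstream. Dnajc30, a mitochondrial protein, had 13 fragments and 3.53 (1.999 to 5.86), 29 bp upstream. The other 20 Dnajc genes were unbound, among them Dnajc5, the cysteine string protein of secretory vesicles, Dnajc6, the clathrin-uncoating protein auxilin, and Dnajc19 of the mitochondrial import motor.

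In CCT, besides Cct4 and Cct7, peaks were found at Cct5, Cct3, Tcp1 and Cct8. Cct5 had 21 fragments and a fold enrichment of 5.54 (3.52 to 8.33), 52 bp upstream of its start. Cct3 had 5.13 (2.84 to 8.66) at 106 bp upstream, Tcp1 had 4.70 (2.66 to 7.81) at 20 bp downstream, and Cct8 had 3.84 (2.36 to 5.95) at 29 bp downstream. Cct7 had a second peak 410 bp upstream with 9 fragments and a fold enrichment of 3.94 (2.02 to 7.13). Cct6a is annotated as a processed transcript in this release and was therefore not counted, and it too had a promoter peak, with 18 fragments and a fold enrichment of 5.05, 140 bp downstream of a start. The unbound genes were Cct2, which encodes the beta subunit, Cct6b, a testis form, and Cct8l1, with nearest summits 84.6, 17.1 and 13.8 kb away.

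Pfdn4 was the bound prefoldin gene, and Pfdn1, Pfdn2, Pfdn5 (30.2% of the 50-base stretches round its start are repeated in the genome) and Pfdn6 had no peak, nor did Vbp1, which encodes the prefoldin subunit that the symbol rule leaves out. Among the heat shock factors, Hsf1, the main activator of the heat shock response, was unbound, with its nearest summit 34.3 kb away, as were Hsf3 and Hsf5. Hsf2, a second factor of the family, had 2 peaks, with 18 fragments and a fold enrichment of 4.79 (2.94 to 7.43) 8 bp downstream of a start, and with 14 fragments and 4.23 (2.44 to 6.90) 350 bp downstream. Hsf4, known for its role in the lens, had 14 fragments and 5.92 (3.41 to 9.66), 21 bp upstream of a start. Hsf2bp, a meiotic partner of HSF2 that is not itself a heat shock factor, had 12 fragments and 5.13 (2.84 to 8.66), 207 bp upstream.

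Hspb11 was the bound gene named among the small heat shock proteins, with 10 fragments, a fold enrichment of 3.70 (1.95 to 6.52) and a q-value of 0.0144. It encodes an intraflagellar transport protein, and the summit, 484 bp upstream of its start, lay nearer to the start of Lrrc42, at 113 bp. The other 7 genes, Hspb1, Hspb2, Hspb3, Hspb6, Hspb7, Hspb8 and Hspb9, had no promoter peak. Hspb1, which encodes the small heat shock protein HSP25 of the mouse, had its nearest summit 47.0 kb away, and the nearest among the others was 15.9 kb away, at Hspb2. Cryab, the alpha B-crystallin gene of the same family, is not matched by the symbols and was also unbound.

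**Figure D3:**
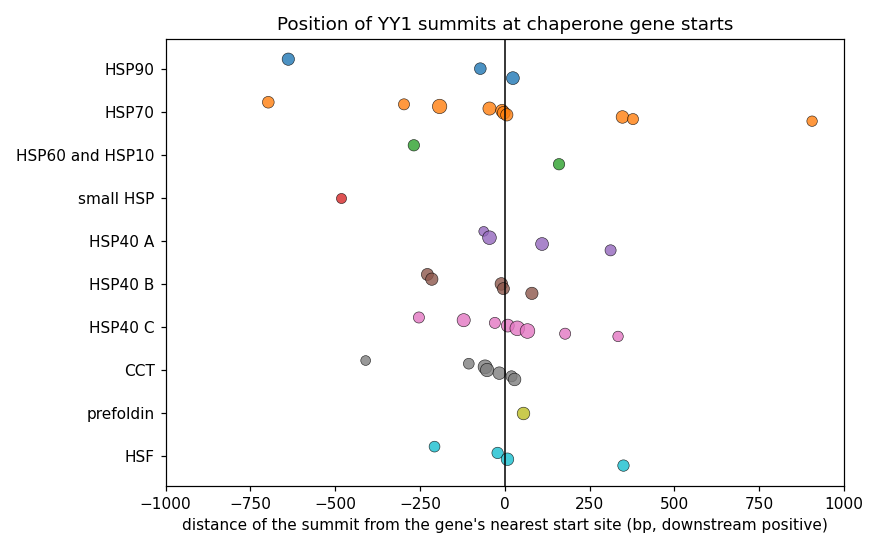
Distance of each YY1 summit from the nearest start of the chaperone gene, in bp, with negative values upstream, by class. Point area grows with the number of fragments. Of the 40 strongest summits 21 lie within 100 bp of a start, and the farthest summit drawn is 906 bp downstream of Hspa1b.

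Summits at chaperone genes crowded round the transcript start, as they did at other bound genes. The median distance was 73.5 bp in the 40 genes and 107 bp in all bound protein-coding genes, measured to the nearest of all basic transcript starts, and 52.5% and 47.9% lay within 100 bp. Measured only to the outermost start of each gene, the median in the chaperone genes was 150 bp. More than 300 bp away lay 7 summits (17.5%), against 16.6% of all bound genes. Of the 40 strongest summits 23 (57.5%) were upstream, and 50.9% of those of all bound genes. The peaks had a median width of 432 bp (215 to 886), and those of all bound genes 368 bp.

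At 12 of the 40 genes (30%) the same summit also lay within 1000 bp of the start of another protein-coding gene, as it did at 25.7% of all bound genes. Besides the Hspd1 and Hspe1 pair, the partners were Pradc1 at Cct7, Fam173b at Cct5, Tsacc at Cct3, Mrpl18 at Tcp1, Rrp1b at Hsf2bp, Fubp1 at Dnajb4, Tbccd1 at Dnajb11, Psmc2 at Dnajc2, Bud23 at Dnajc30 and Lrrc42 at Hspb11. By the starts of basic transcripts, the other start was the nearer one in 5 genes, Cct3, Tcp1, Dnajb4, Hspd1 and Hspb11. The outermost end of the gene was nearer than the partner in Hspd1, at 49 bp, and in Dnajb4, at 4 bp. At Tcp1 the summit was 4 bp from the start of Mrpl18 and 20 bp from that of Tcp1, and at Cct3 it was 11 bp from Tsacc and 106 bp from Cct3. Which of the paired genes a peak belongs to cannot be told apart from the peak list.

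Among the 52 unbound genes, the nearest summit was usually far off. It lay more than 50 kb from the start in 33 genes, between 5 and 50 kb in 15 and between 1 and 5 kb in 4, with a median of 72.6 kb and a largest distance of 3764 kb at Dnajb9. The 4 genes just outside the window were Hspa1a at 1178 bp, Hspa1l at 1725 bp, Dnajb14 at 3269 bp and Dnajc4 at 4628 bp. Just inside it were the second peak of Hspa1b at 906 bp, the stronger peak of Hspa8 at 697 bp and the stronger peak of Hsp90ab1 at 638 bp. Hspa8 and Hsp90ab1 did not depend on these, since each had a second peak closer to its start.

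The stress-inducible HSP70 genes Hspa1a and Hspa1b need separate description, because they are near-identical copies whose starts lie 12918 bp apart on chromosome 17. Their RefSeq promoter windows, from 250 bp before to 50 bp after the start, matched at 296 of 300 positions. The 250 bases upstream are given here on the minus strand, on which both genes run, 5′ to 3′, with the 3 positions that differ in capitals.
Hspa1a, chr17:34972157-34972406: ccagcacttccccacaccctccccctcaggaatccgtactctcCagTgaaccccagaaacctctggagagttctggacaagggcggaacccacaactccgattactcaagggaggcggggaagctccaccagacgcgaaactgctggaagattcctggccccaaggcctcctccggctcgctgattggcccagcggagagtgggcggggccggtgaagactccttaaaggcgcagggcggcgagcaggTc
Hspa1b, chr17:34959239-34959488: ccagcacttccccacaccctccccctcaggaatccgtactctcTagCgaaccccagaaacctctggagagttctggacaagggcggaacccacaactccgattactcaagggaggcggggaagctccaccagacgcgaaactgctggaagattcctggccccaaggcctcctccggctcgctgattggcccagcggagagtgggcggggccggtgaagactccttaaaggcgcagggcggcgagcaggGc
Of all 50-base stretches of the Hspa1a gene 58.8% also occur in Hspa1b, and 62.3% of those of Hspa1b occur in Hspa1a. Longer stretches of 150 bases are shared less, 38.1% of those of Hspa1a and 40.5% of those of Hspa1b.

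**Figure D4:**
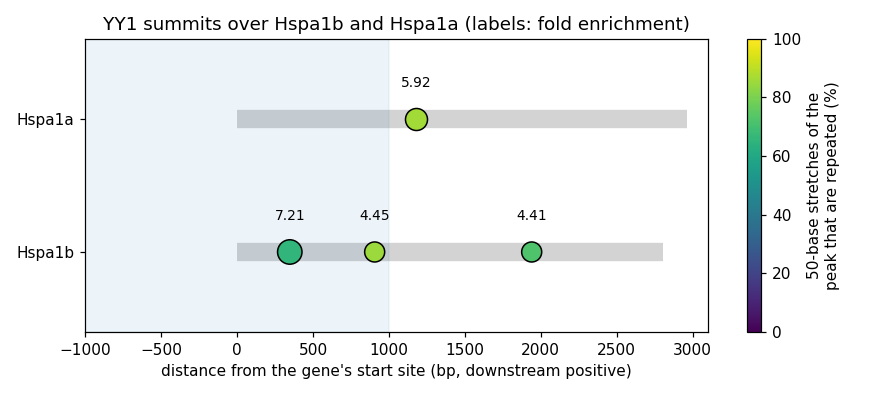
YY1 summits over Hspa1b (4.41, 4.45 and 7.21) and Hspa1a (5.92), by distance from the start of each gene in bp, with the fold enrichment above each point. Grey bars are the genes, the shaded band the 1000 bp window, point area grows with the number of fragments, and colour gives the percent of 50-base stretches of the peak that occur more than once in the genome.

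The summits of all 4 peaks over the pair lay inside the transcribed genes. Hspa1b had 18 fragments and a fold enrichment of 7.21 (4.43 to 11.2) 347 bp downstream of its start, and 11 fragments each at 906 bp, with 4.45 (2.41 to 7.66), and at 1940 bp, with 4.41 (2.39 to 7.60). Hspa1a had 14 fragments and 5.92 (3.41 to 9.66) at 1178 bp. Of the 50-base stretches in these peaks, 65.3%, 84.8%, 72.0% and 86.1% occur more than once in the genome, while the share over all peaks of the list was 5.73%. Of the 44 chaperone promoter peaks, 37 held no repeated stretch, and outside Hspa1b the highest share was 5.88%, at Hspa8. Of stretches of 150 bases, the read length of this library, 29.1%, 77.1%, 27.0% and 64.7% occur unchanged in the other copy. Reads came in pairs, so these shares do not give how many pairs could be told apart. The paper lists a count of uniquely mapping reads that is close to the depth computed above. It does not state how reads fitting both copies were handled. How much the shared sequence bears on the call of Hspa1b as bound and Hspa1a as unbound was not tested.

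Promoter sequence was compared in the RefSeq windows of 300 bases round the start, which were matched by symbol for 74 of the 92 genes (95 windows, some genes having several starts). CpG content is the count of CG divided by that expected from the C and G of the window. Its median was 0.891 in the 40 windows of bound chaperone genes and 0.703 in the 55 of unbound ones, and 0.854 and 0.464 in the windows of all bound and all unbound protein-coding genes. A value of at least 0.6 was found in 97.5% of the windows of bound chaperone genes, the exception being Hspa1b at 0.577, and in 65.5% of those of unbound ones. In all bound and all unbound protein-coding genes it was found in 83.5% and 39.9%. Over all chaperone windows, bound or not, the share was 78.9%, and over all promoter windows 47.7%. How far CpG content bears on the share of chaperone genes bound was not tested. The medians of the bound chaperone windows and of all bound windows were close, and that of the unbound chaperone windows lay between the background groups. The median of the small heat shock protein windows was 0.507, from 0.284 at Hspb7 to 0.801 at one start of Hspb6.

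**Figure D5:**
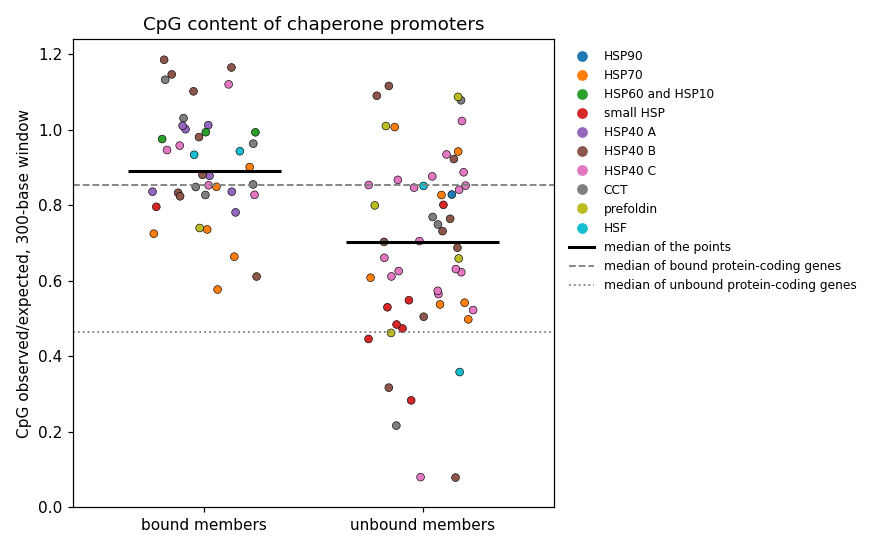
CpG observed over expected in the 300-base RefSeq promoter windows of bound (40 windows) and unbound (55 windows) chaperone genes, one point per window, coloured by class. Thick lines are the medians, 0.891 and 0.703, and the dashed and dotted lines are the medians of all bound (0.854) and all unbound (0.464) protein-coding genes.

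GC content differed less, with medians of 65.0% in the windows of bound and 60.0% in those of unbound chaperone genes, and of 65.0% and 55.0% in all bound and all unbound genes. The TATA sequence TATAAA, on either strand, was in none of the 40 windows of bound chaperone genes and in 4 of the 55 of unbound ones (7.27%), at Dnajc19, Dnajc24, Hspb3 and Hspb6. It was in 12.6% of all promoter windows, in 5.28% of those of all bound and 14.04% of those of all unbound genes. The CCAAT sequence was in 47.5% of the bound and 32.7% of the unbound chaperone windows, and in 34.1% and 38.9% of those of all bound and all unbound genes, which is the opposite order. In 37 of the 40 bound windows the start lay within 1000 bp of the gene's own summit, and in the other 3, at Dnajb4, Hsf2bp and Pfdn4, it lay 16.5, 2.05 and 14.9 kb away. The motif AANATGGC itself was in 2 of the 40 windows of bound chaperone genes (5.00%) and 5 of the 55 of unbound ones (9.09%). It was in 6.37% of all windows. In all bound and all unbound protein-coding genes the shares were 10.1% and 5.52%, which is the opposite order. The chaperone counts are small, and Dnajc11, Dnajc30 and Hspa9, whose peaks hold the motif, have no window here. The start in the window of Pfdn4 lies 14.9 kb from its summit, and the window of Dnaja3 ends before its motif. The unbound chaperone genes with the motif close behind the start included Dnajc7 and Pfdn2, both with AAGATGGC, at 20 and 34 bp downstream.

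The heat shock element was searched as GAANNTTC, which is its own reverse complement, in the same windows. It was present in 18 of the 95 chaperone windows (18.9%), from 16 genes, and in 7.21% of all promoter windows. Of the 16 genes 6 were bound by YY1 and 10 were not, where 30 of the 74 genes with windows were bound. The shares of windows were close, 17.5% in bound and 20.0% in unbound chaperone genes. In all bound and all unbound protein-coding genes they were 5.12% and 7.67%. The longer form with 3 units, in which GAA follows the element after 2 further bases or TTC precedes it by 2, was in 6 windows (6.32%) and in 0.518% of all. These 6 windows overlap and hold 3 distinct places, at Dnajb6, at Hsph1 and between Hspd1 and Hspe1, so the 4 genes are 5.41% of the 74 with windows, and 0.595% of all genes with windows had the form. The elements upstream of the start are given for 6 genes, chosen as examples of bound and unbound calls, from RefSeq GRCm38.p6, on the strand of the gene with the elements in capitals.
Dnaja4, chr9:54699459-54699524, plus strand, bound: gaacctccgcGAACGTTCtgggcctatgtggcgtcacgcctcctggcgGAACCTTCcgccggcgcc
Dnaja1, chr4:40722334-40722361, plus strand, bound: aaagcctctaGAAAATTCtacgaggctc
Hspe1, chr1:55088054-55088081, plus strand, bound: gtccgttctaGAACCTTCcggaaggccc
Hspb1, chr5:135887792-135887839, plus strand, unbound: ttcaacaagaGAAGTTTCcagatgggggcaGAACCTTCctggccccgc
Dnajb6, chr5:29735842-29735869, plus strand, unbound: tcagctccgaGAATCTTCcggaacgcta
Cct2, chr10:117063400-117063427, minus strand, unbound: cccaagtgaaGAAGTTTCtagcaggacc

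In Dnaja4, the gene with the highest YY1 fold enrichment, the elements began 90 and 52 bp before the RefSeq start, and the summit, 45 bp before it, lay inside the second. Hspb1 carried 2 elements as well, 117 and 97 bp before the start, with no YY1 peak, though 33.3% of the 50-base stretches within 500 bp of its start are repeated in the genome. The element between Hspd1 and Hspe1 began 84 bp before the start of Hspe1 and, read from the other strand, 139 bp before a RefSeq start of Hspd1. It lay inside the shared peak, where it forms the 3-unit sequence in both directions. Dnajb6 had the 3-unit form and no peak, and Hsph1, which was bound, had it 15 bp downstream of one start. In Hspa1a and Hspa1b the element began 104 bp before the start in both copies, in the stretch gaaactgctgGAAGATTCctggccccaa. Elements were also found in unbound Hspb3, Hspb6, Hspb8, Dnajc5g, Dnajc27 and Cct8l1.

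Partners of the chaperones that the symbols do not match were looked at in a list made with earlier results of these data known. Of 44 co-chaperones and related folding factors, 19 (43.2%) had a promoter summit, against the 18.8% of all protein-coding genes, with a median fold enrichment of 5.13. They included, among HSP90 partners, Ahsa1, Cdc37, Chordc1, Ptges3, Fkbp5, Ttc4, Unc45a and Tomm34, and among HSP70 partners Bag5, Bag6, Hspbp1, St13, Gak and the mitochondrial exchange factor Grpel2. The tubulin cofactors Tbcb and Tbcd, the endoplasmic reticulum chaperone Calr and Trap1, the mitochondrial HSP90, were also bound. Bag6, which escorts membrane proteins to the endoplasmic reticulum and to degradation, had the highest value, 13.4, followed by 8.64 at Tbcb and 7.49 at Trap1. The lowest was 3.03 at Unc45a, whose q-value was 0.0743. Unbound were 25, among them Stip1, which links HSP70 to HSP90, Stub1, the ubiquitin ligase of HSP70 clients, Bag3, which works with Hspb8 in muscle, and the myosin chaperone Unc45b. Of the 15 processed pseudogenes whose symbols derive from chaperone genes, 0 had a summit within 1000 bp. The share over all processed pseudogenes was not computed, so this count has no background to be set against.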

How the data were processed

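Per the methods, the authors quality-filtered the reads, aligned these to mm10 with Bowtie2, dropped redundant ones and ran MACS2 at a p-value limit of 0.0001 (versions not given in the sources used here). The deposited list gives, per peak, fold enrichment as a ratio, −log10 p-value and −log10 q-value, and the deposited integer score was not used. Whole fragments were recovered for 100% of the peaks, within 0.001 of the −log10 p-value. Summits were placed against GENCODE M21 basic transcript starts. Of several promoter peaks, the one with the highest fold enrichment stands for a gene. Every bound gene is named, beside genes listed by symbol and those just outside the window. Of the bound co-chaperones, 1 is not reported here by name. Genes, lists and alternatives were chosen with earlier results of these data known. No test was run, since there is 1 library. Repeated stretches were 50-base words taken every 10 bases and counted in the chromosomes of GRCm38.p6. Promoter windows are from RefSeq. Placement, fragment recovery, motif search and repeat counting were tested on simulated data. Python 3.11.15, pandas 2.3.3, numpy 2.4.6, pysam 0.24.0, scipy 1.17.1, numba 0.67.0, samtools 1.23.1 and matplotlib 3.10.9 were used (seed 1).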

Additional observations from a re-analysis of the deposited data

How the results depend on the processing

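No paired analysis was possible because each antibody has 1 library, and no replicate could be left out. Of 125 alternative values, 110 stayed within 1.5 times the reported count or within the 95% binomial interval of the reported share or median, and 15 moved beyond it. The number of bound genes ranged from 23 to 42. The share of chaperone genes exceeded that of all protein-coding genes in every setting tried, but all settings cut the same peak list. A fold enrichment of at least 5 moved it most, to 23 genes (25%, and 11.1% of all genes), with a median of 6.27 and with 5 HSP70, 2 Dnaja, 3 Dnajb, 4 Dnajc and 0 small heat shock protein genes. With q under 0.01, 36 genes (17.4% of all genes) stayed bound and 0 small heat shock protein genes. Hspd1 and Hspe1 were both lost at that limit and at a fold enrichment of at least 5. The count for their class was not among the 125 values, so its fall is not in the 15 that moved. Using the outermost start of each gene left 37 genes (17.4% of all genes), with 0 prefoldin and 1 HSP90 genes, since Pfdn4, Hsp90aa1 and Dnaja3 are bound at inner starts, and the median distance rose from 73.5 to 150 bp. A window of 1000 bp upstream to 100 bp downstream left 34 genes (14.6% of all genes), and 2000 bp either side gave 42, adding Hspa1a and Hspa1l (19.3% of all genes). Without peaks of which at least 50% of the stretches are repeated, an alternative chosen after seeing the data, 39 genes remained (18.5% of all genes) and Hspa1b was lost. The share of chaperone peaks with AANATGGC rose from 4.55% to 18.2% within 200 bp and 20.5% over the whole peak, where all promoter peaks went from 7.55% to 14.03% and 14.9%, and with the core ATGGC it was 22.7% (30.6% at all promoter peaks). Within 50 bp, and for AAGATGGC, it was 2.27%, inside the interval of the 4.55% (0.555% to 15.5%). At all promoter peaks these 2 shares were 3.94% and 4.05%. The 3-unit heat shock element was in 6.32% of windows (0.518% of all). The smallest fragment counts, such as the 9 at Dnaja3 and the 10 at Hspb11, lay near the lowest of the list, 8. The effect of depth on the calls was not tested.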
